A study of Homo sapiens with 12 samples.

Results

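Nucleolar ribosome biogenesis factors are the proteins that transcribe, modify, cut and fold ribosomal RNA (rRNA) and load it with ribosomal proteins. Their transcripts were followed in the squamous carcinoma lines HSC-1 and A431 after exposure to everolimus. The set was 56 genes chosen by name with earlier results of these data known, so the counts below are no test of the set. Of the 56, 39 had a named probe set on the array, and all 39 were among the 10613 genes tested. In HSC-1 cells given everolimus, 22 of the 39 transcripts fell and 2 rose, where 11.3% of all genes tested fell and 7.34% rose. In A431 cells given the same drug, 1 fell and 2 rose, where 4.33% of all genes fell and 2.39% rose. The remaining 17 listed genes were not analysed here: POLR1A, POLR1B, POLR1C, NOP56, DKC1, UTP4, UTP15, UTP20, RRP9, TSR1, PES1, GNL3, DDX18, EBNA1BP2, PPAN, BRIX1 and NPM1.

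Ribosome assembly starts in the nucleolus, where RNA polymerase I transcribes a long rRNA precursor. Small nucleolar ribonucleoproteins (snoRNPs) guide its methylation and pseudouridylation, and separate sets of assembly factors carry the precursors of the small and the large subunit towards export. Everolimus, a rapamycin analogue, inhibits mTOR complex 1, a kinase that promotes RNA polymerase I transcription and the translation of messenger RNAs beginning with a C and a run of pyrimidines, which include those of most ribosomal proteins. The transcription factor MYC, which binds the E-box sequence, is known to promote the transcription of many of these assembly factors.

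The 12 Affymetrix arrays fell into 4 groups of 3: HSC-1 with everolimus, HSC-1 with the vehicle DMSO, A431 with everolimus, and A431 with DMSO. Both are established human cell lines derived from squamous carcinoma of the skin, and every culture was exposed for 72 h, with everolimus at 100 nM, so that 1 dose and 1 time stand for the drug. The series set out to find genes linked to everolimus resistance in this tumour type. Whether the 3 arrays of a group stand for separate cultures is not stated, and the p-values therefore cover only array-to-array spread, which could be technical.

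Each value is a log2 expression level from RMA, a method that puts all arrays on 1 distribution, and the array medians ran from 4.34 to 4.39. A change in the total RNA of a cell is therefore hidden, and fewer cells of a type cannot be told apart from less of a transcript per cell. Levels correlated at 0.989 to 0.992 between arrays of a group, at 0.987 to 0.991 between treatments of a line and at 0.955 to 0.962 between lines, over all probe sets. All 39 factors lay above the median of their own array on all 12 arrays. Of 14 squamous keratinocyte markers, 7 had a named probe set, and all 7 (KRT5, KRT14, SFN, DSP, DSG3, PKP1 and JUP) lay above the median on all 12 arrays. Among markers of other cell types, the 3 endothelial genes named, DCN, MLANA, TYR and LYZ lay below it on all 12, whereas THY1, SOX10 and CD68 lay above it on all 12. LUM lay above it on 6 arrays, CD14 on 5 and PMEL on 1.

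The starts of the genes are shown first, for sequence features that some of the factors held. The RefSeq promoter table (GRCh38.p14, from 250 bases before to 50 bases after each start) listed a start for 32 of the 39 factors. The E-box CACGTG, which reads the same on both strands, lay within the 50 transcribed bases of 11 of these 32 (34.4%), of 10 of 78 other ribosome biogenesis genes (12.8%), of 1 of 44 cytosolic ribosomal protein genes (2.27%), and of 115 of 8089 tested genes with a listed start (1.42%). Of the 11, 5 belong to factors that fell in HSC-1, and they are printed below, 5′ to 3′ on the gene's own strand, with the E-box in capitals.
NOP2 (chr12:6568242-6568268, minus strand): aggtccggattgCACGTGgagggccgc
MRTO4 (chr1:19251807-19251833, plus strand): cgtcttccgccgCACGTGgattcagcg
LTV1 (chr6:143843354-143843380, plus strand): gtcctggggctgCACGTGtggtgaggc
NOC3L (chr10:94362906-94362932, minus strand): tagggacttcggCACGTGtgtcattcc
BYSL (chr6:41921515-41921541, plus strand): ttcttcagtcccCACGTGcgatccttc
Counting the first transcribed base as 1, the E-box began at base 36 in NOP2, 15 in MRTO4, 29 in LTV1, 20 in NOC3L and 29 in BYSL. A further 5 E-boxes after the start lay in genes with no call in HSC-1 (GNL2, WDR43, NOP14, GAR1 and MYBBP1A), and 1 lay in FBL, which rose. The E-box after the start was thus held by 5 of 17 factors that fell, 5 of 13 that did not pass and 1 of 2 that rose.

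Over the whole 300 bases, the E-box was found in 15 of the 32 factors (46.9%), against 20 of 78 other ribosome biogenesis genes (25.6%) and 988 of the 8089 tested genes (12.2%). By response in HSC-1, 8 of 17 factors that fell held it, as did 6 of 13 that did not pass the test and 1 of the 2 that rose. The variant box CACGCG or its reverse complement CGCGTG was found in 13 of the 32 (40.6%), in 22 of 78 other ribosome biogenesis genes (28.2%) and in 1734 of the 8089 tested genes (21.4%). These are matches of letters in a window, and nothing was measured of a factor's binding.

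The other feature was a transcript that begins with C followed by pyrimidines, scored where the run of C and T from the start was at least 5 bases long. It was found in 4 of the 32 factors (12.5%), against 554 of the 8089 tested genes (6.85%) and 31 of the 44 ribosomal protein genes (70.5%). Both factors that rose in HSC-1, NOP53 and FBL, were among the 4, and the others were DDX21, which fell, and NOB1, which did not pass. The windows below run from 5 bases before the start to 20 bases after it, with the pyrimidine run in capitals.
NOP53 (chr19:47745541-47745565, plus strand): gagttCTTCCTTTgacaagatggcg
FBL (chr19:39846360-39846384, minus strand): gcgctCTTTTCCacgtgcgaaagcc
DDX21 (chr10:68956165-68956189, plus strand): actacCTCTTCCTCTCCacgcggtt
The runs were 8 bases long in NOP53, 7 in FBL and 12 in DDX21, for which this is the first of 2 listed starts. The E-box of FBL spans bases 7 to 12, so the last C of its run is also the first base of the E-box.

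**Figure D1:**
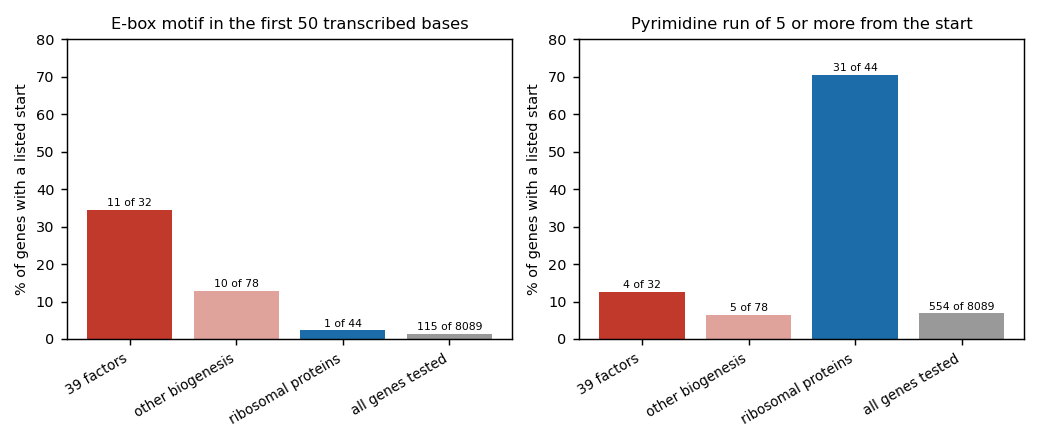
Share of genes with a listed start (y axis, percent) that hold an E-box within the first 50 transcribed bases (left) or begin with a C and a pyrimidine run of at least 5 bases (right), for 4 groups of genes. The factors had the higher share of E-boxes (11 of 32, against 1 of 44 ribosomal protein genes), and the ribosomal protein genes the higher share of pyrimidine runs (31 of 44, against 4 of 32).

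With everolimus, a majority of the nucleolar factors fell in HSC-1. Of the 39, 22 fell, 2 rose and 15 did not pass the threshold of an adjusted p of 0.05 (limma, Benjamini-Hochberg over the 10613 genes), and 36 of the 39 differences were negative. Across all genes tested, 11.3% fell and 7.34% rose, and 55.1% of the differences were negative. The median log2 difference was -0.23 over the factors (quartiles -0.30 and -0.13) and -0.02 over all genes. For 29 of the 39 the 3 everolimus arrays lay wholly below the 3 DMSO arrays, an arrangement found in 19.6% of all genes. Falls were called for 1 of 1 polymerase I factor, 2 of 6 snoRNP proteins and 6 of 13 small subunit factors. They were also called for 10 of 15 large subunit factors and 3 of 4 proteins with several roles. The polymerase I role rests on RRN3 alone, whose call was lost in 15 of 20 alternative settings. The 2 factors that rose were a snoRNP protein and a large subunit factor.

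**Figure D2:**
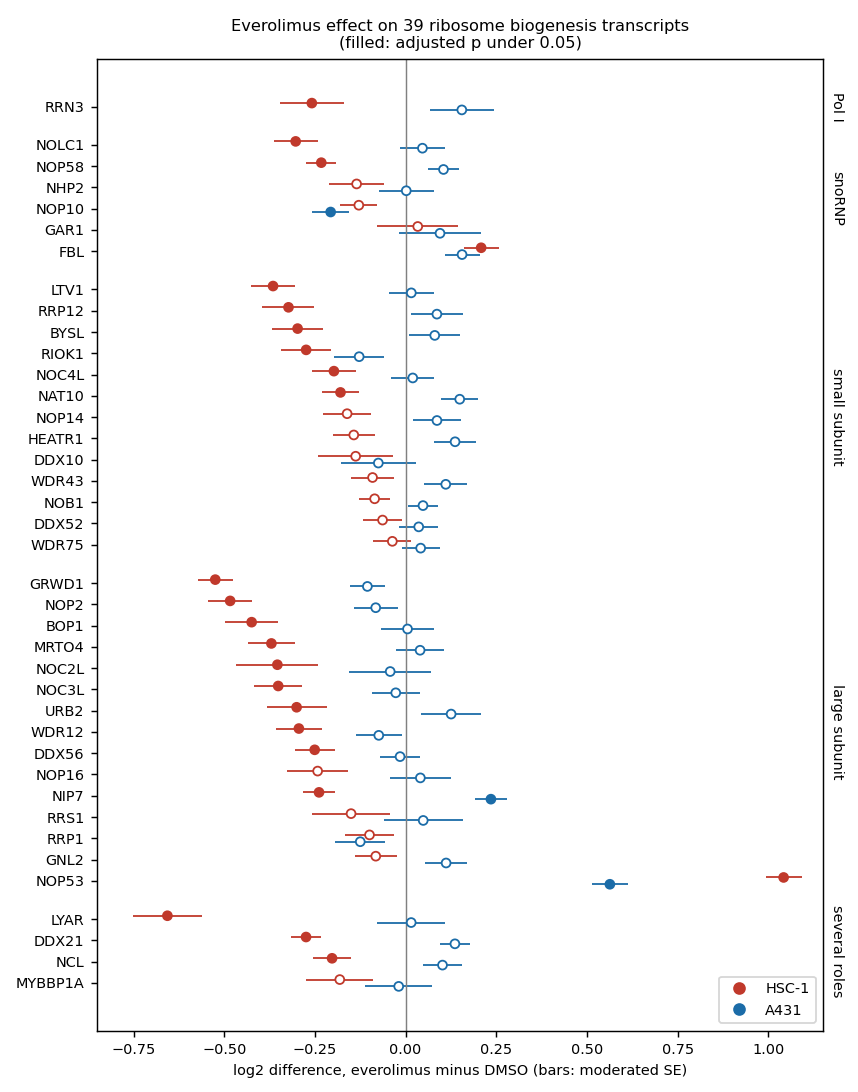
Log2 difference between everolimus and DMSO (x axis) for each of the 39 factors, grouped by role, in HSC-1 (red) and A431 (blue). Points are estimates, bars the moderated standard errors, and filled points have an adjusted p under 0.05: in HSC-1, 22 filled points lie left of 0 and 2 right of it, and in A431, 1 lies left and 2 right.

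RRN3 links RNA polymerase I to its promoter-bound factors and is a known target of mTOR signalling. Its level was 7.71, 7.60 and 7.40 on the HSC-1 everolimus arrays, against 7.77, 7.71 and 8.01 on the DMSO arrays. The groups barely separated, and the difference was -0.26 ± 0.09 (SE, n = 3 arrays each, limma adjusted p = 0.0491). That call was lost in 15 of 20 alternative settings, with adjusted p up to 0.245. RRN3 also has near-identical pseudogene copies, so its probe set is uncertain.

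Among the snoRNP proteins, those of the box C/D class went different ways. NOP58, a core scaffold protein of box C/D snoRNPs, which guide methylation, read 10.07, 10.10 and 9.95 with everolimus, against 10.25, 10.26 and 10.30 with DMSO in HSC-1, a fall of 0.23 ± 0.04 (SE, limma adjusted p = 6.34e-04). FBL (fibrillarin), the methyltransferase of the same particles, read 9.38, 9.34 and 9.40 with everolimus, against 9.17, 9.23 and 9.10 with DMSO. FBL thus rose by 0.21 ± 0.05 (SE, limma adjusted p = 0.00497), with no overlap between the groups. NOLC1, a chaperone that binds snoRNPs and RNA polymerase I, read 8.44, 8.47 and 8.45 with everolimus, against 8.81, 8.71 and 8.75 with DMSO, and fell by 0.30 ± 0.06. The H/ACA proteins, which belong to the particles that guide pseudouridylation, did not pass. Their differences in HSC-1 were -0.14 ± 0.08 for NHP2, -0.13 ± 0.05 for NOP10 and 0.03 ± 0.11 for GAR1.

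Small subunit factors had differences from -0.37 to -0.04 in HSC-1, all 13 negative, with a median of -0.16. LTV1, a protein of cytoplasmic small subunit maturation, read 8.11, 8.13 and 8.17 with everolimus, against 8.54, 8.50 and 8.46 with DMSO, and fell by 0.37 ± 0.06 (SE, limma adjusted p = 3.77e-04). RRP12, needed for export of the pre-ribosomal particles, read 6.65, 6.83 and 6.64, against 6.99, 7.10 and 7.00, and fell by 0.32 ± 0.07 (limma adjusted p = 0.00359). BYSL (bystin), which acts in late small subunit precursors, read 6.61, 6.57 and 6.46, against 6.90, 6.84 and 6.80, and fell by 0.30 ± 0.07 (limma adjusted p = 0.0053). In all 3 genes the everolimus arrays lay below every DMSO array. RIOK1, an atypical kinase of late small subunit maturation, read 7.56, 7.39 and 7.45, against 7.70, 7.79 and 7.73, and fell by 0.27 ± 0.07. NOC4L, whose yeast counterpart partners that of NOP14, fell by 0.20 ± 0.06 and NAT10, an rRNA acetyltransferase, by 0.18 ± 0.05 (limma adjusted p of 0.0266 and 0.0188). Both of these calls were lost in 5 of 20 alternative settings, leaving out HSC-1 DMSO replicate 1, DMSO replicate 2 or everolimus replicate 2 among them, with adjusted p up to 0.127 for NOC4L and 0.0799 for NAT10. NOC4L was also lost without DMSO replicate 3, and NAT10 without everolimus replicate 3. The other 7 small subunit factors (NOP14, HEATR1, DDX10, WDR43, NOB1, DDX52 and WDR75) did not pass, with differences from -0.16 to -0.04.

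Of the 15 large subunit factors, 10 fell in HSC-1, with a median of -0.29. GRWD1, a histone-binding protein that also associates with large subunit precursors, read 8.15, 8.09 and 8.06 with everolimus in HSC-1, against 8.67, 8.66 and 8.55 with DMSO. It fell 1.44-fold (-0.52 ± 0.05, SE, limma adjusted p = 5.05e-07), with no overlap between the groups. NOP2, an rRNA cytosine methyltransferase, read 7.95, 7.90 and 7.97 with everolimus, against 8.45, 8.41 and 8.41 with DMSO, and fell 1.40-fold (-0.48 ± 0.06, limma adjusted p = 1.71e-05). BOP1, which with PES1 and WDR12 forms the PeBoW complex of large subunit rRNA processing, read 6.52, 6.51 and 6.67, against 7.02, 7.03 and 6.93. BOP1 fell 1.34-fold (-0.42 ± 0.07, limma adjusted p = 4.49e-04), and its other probe set gave -0.31. The PeBoW partner WDR12 read 6.82, 6.65 and 6.68, against 6.99, 7.05 and 6.99, and fell by 0.29 ± 0.06 (limma adjusted p = 0.00268). MRTO4, which holds the place of the stalk protein on large subunit precursors, read 7.39, 7.57 and 7.47, against 7.85, 7.84 and 7.83, and fell by 0.37 ± 0.07. NOC3L and NOC2L, whose yeast counterparts form complexes that move large subunit precursors, each fell by 0.35, with standard errors of 0.07 and 0.11. NOC2L rested on arrays at 5.14, 4.71 and 4.74, against 5.23, 5.20 and 5.23, and its call was lost in 7 of 20 alternatives, among them leaving out everolimus replicate 2 or 3 or any DMSO array of HSC-1 (adjusted p up to 0.159). URB2, a nucleolar protein, fell by 0.30 ± 0.08, a call lost without HSC-1 DMSO replicate 1 or 3 (adjusted p up to 0.0954), the helicase DDX56 by 0.25 ± 0.05 and NIP7 by 0.24 ± 0.04. NOP16, RRS1, RRP1 and GNL2 did not pass, with differences from -0.24 to -0.08.

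NOP53, a large subunit factor that recruits the nuclear exosome to rRNA precursors, went the other way. It read 8.65, 8.74 and 8.84 on the everolimus arrays of HSC-1, against 7.69, 7.71 and 7.70 on the DMSO arrays. The rise was 2.06-fold (1.04 ± 0.05, SE, limma adjusted p = 9.27e-11), the fifth largest log2 difference among the 10613 genes.

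Of the proteins with several roles, LYAR had the largest fall of all 39 factors in HSC-1. LYAR, a zinc finger protein that promotes rRNA transcription and processing, read 6.29, 6.10 and 6.46 with everolimus, against 6.98, 6.87 and 6.98 with DMSO. It fell 1.58-fold (-0.66 ± 0.09, SE, limma adjusted p = 7.71e-05), and the highest everolimus array lay below the lowest DMSO array. DDX21, a helicase of rRNA transcription and processing, read 9.87, 9.84 and 9.78, against 10.12, 10.10 and 10.09, and fell by 0.27 ± 0.04 (limma adjusted p = 1.46e-04). NCL (nucleolin), an abundant nucleolar RNA-binding protein, read 6.93, 6.97 and 6.97, against 7.16, 7.18 and 7.14, and fell by 0.20 ± 0.05 (limma adjusted p = 0.012). MYBBP1A did not pass (-0.18 ± 0.09), although its everolimus arrays (7.52, 7.51 and 7.63) lay below its DMSO arrays (7.86, 7.68 and 7.67).

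**Figure D3:**
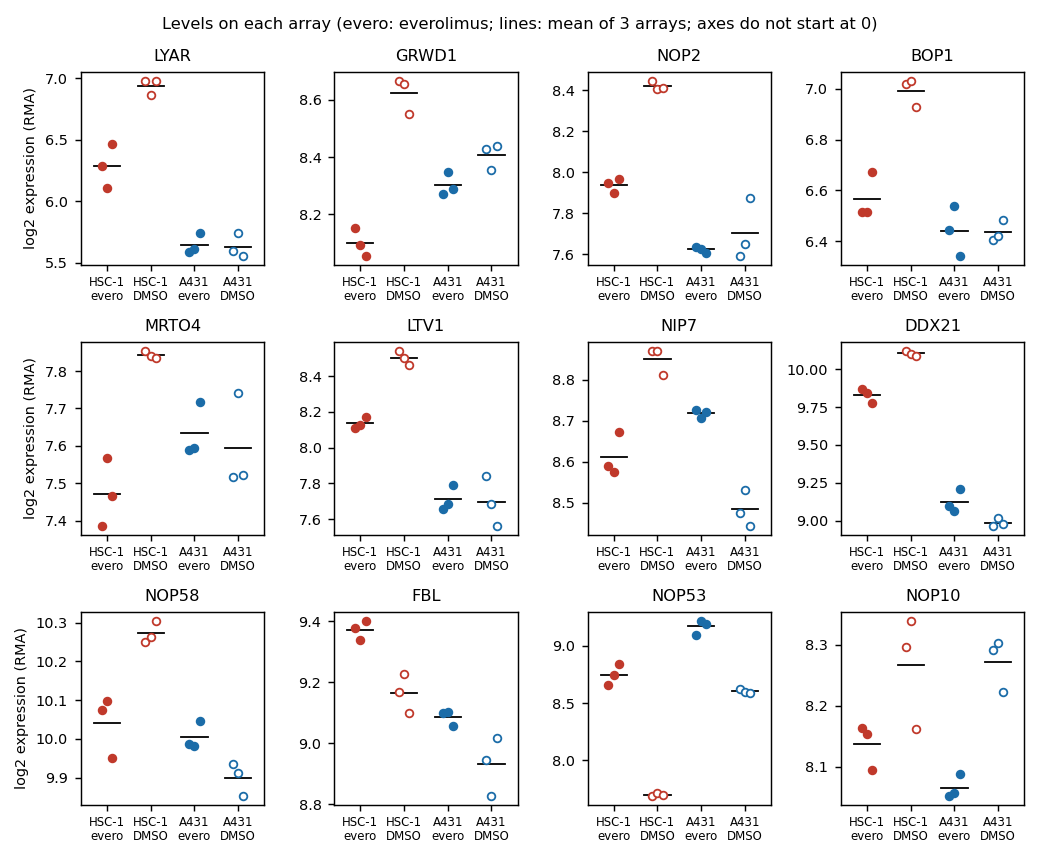
Log2 expression (y axes, not starting at 0) of 12 factors on each array, with filled points for everolimus, open points for DMSO and lines at the mean of 3 arrays, HSC-1 in red and A431 in blue. LYAR, GRWD1, NOP2, BOP1, MRTO4 and LTV1 have HSC-1 everolimus arrays below HSC-1 DMSO arrays, NIP7 moves in opposite directions in the lines, and NOP53 is higher with everolimus in both.

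In A431 the drug left few calls among the factors. Of the 39, 2 rose, 1 fell and 36 did not pass, against 2.39% rising and 4.33% falling over all genes. An unadjusted p under 0.05 in limma was found for 9 of the 39, against 2030 of the 10613 genes tested. The median difference was 0.04 (28 positive, 11 negative), beside a median of -0.004 over all genes, of which 51% had a negative difference. NOP53 rose in this line too, with 9.09, 9.22 and 9.19 on the everolimus arrays, against 8.62, 8.60 and 8.59 on the DMSO arrays. That is 1.48-fold (0.56 ± 0.05, SE, limma adjusted p = 9.54e-07), the 12th largest difference of all genes in A431.

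NIP7, which binds large subunit precursors and acts in rRNA processing, was the other riser in A431. It read 8.73, 8.71 and 8.72 with everolimus, against 8.48, 8.53 and 8.44 with DMSO in A431, a rise of 0.24 ± 0.04 (SE, limma adjusted p = 0.002). The HSC-1 arrays of NIP7 read 8.59, 8.57 and 8.67 with everolimus, against 8.87, 8.87 and 8.81 with DMSO, and the fall there had an adjusted p of 6.63e-04 by limma. NIP7 thus passed the test in opposite directions, with no overlap of arrays in either line.

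NOP10, an H/ACA core protein, was the factor that fell in A431. It read 8.05, 8.06 and 8.09 with everolimus, against 8.29, 8.30 and 8.22 with DMSO (-0.21 ± 0.05, SE, limma adjusted p = 0.0176). The call was lost in 5 of 20 alternatives, which included leaving out replicate 1 or replicate 2 of either A431 group, with adjusted p up to 0.0818. Its HSC-1 difference was -0.13 ± 0.05 (limma adjusted p = 0.0898), and the difference between the lines' effects was 0.08 ± 0.07.

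Several of the genes that fell in HSC-1 gave A431 values close to 0. LYAR read 5.58, 5.61 and 5.74 with everolimus in A431, against 5.59, 5.74 and 5.55 with DMSO (0.02 ± 0.09). BOP1 read 6.44, 6.54 and 6.34, against 6.41, 6.42 and 6.48 (0.01 ± 0.07), and its other probe set gave -0.10. GRWD1 read 8.27, 8.35 and 8.29, against 8.43, 8.36 and 8.44, so its arrays separated without passing (-0.11 ± 0.05, limma adjusted p = 0.237). FBL gave 9.10, 9.10 and 9.06, against 8.95, 8.83 and 9.02, a difference of 0.16 ± 0.05 that did not pass (limma adjusted p = 0.0627). DDX21 was close to the threshold as well, at 0.14 ± 0.04 (limma adjusted p = 0.0614). FBL passed in 1 of 20 alternatives and DDX21 in 3 of 20.

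Whether the drug acted differently in the lines was tested by subtracting the effect in A431 from that in HSC-1. This difference passed for 19 of the 39 factors, 18 negative and 1 positive, against 5.69% negative and 4.84% positive over all genes, with a median of -0.28 over the factors and -0.01 over all genes. The comparison uses the same arrays as the effects above, so it is no separate evidence of them. Of the 22 factors that fell in HSC-1, 17 also had a called difference. The HSC-1 effect is itself a term of that difference, which favours such a call, and the share among all genes that fell was not counted. By role, the negative calls covered 1 of 1 polymerase I factor, 2 of 6 snoRNP proteins, 5 of 13 small subunit factors, 7 of 15 large subunit factors and 3 of 4 proteins with several roles. For 25 factors the effect was negative in HSC-1 and positive in A431, and 15 of these had a called difference. Many of the A431 signs were uncertain, as 36 of the 39 factors did not pass there and 14 of those changed sign in some alternative. The share of all genes with such opposite signs was not counted.

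LYAR had the largest difference of effects among the factors (-0.67 ± 0.13, SE, limma adjusted p = 0.00282). NIP7 followed at -0.47 ± 0.06 (limma adjusted p = 6.3e-05). BOP1, URB2, GRWD1, RRN3, DDX21, MRTO4, RRP12 and NOP2 lay between -0.43 and -0.40, and LTV1, BYSL, NOLC1, NOP58, NAT10, NOC3L, NCL and HEATR1 between -0.38 and -0.28. HEATR1, a scaffold of the early small subunit precursor, passed here without passing in either line, with effects of -0.14 in HSC-1 and 0.14 in A431. That call was lost in 10 of 19 alternatives, 7 of which left out a single array, with adjusted p up to 0.116. NOP53 was the positive one, as it rose further in HSC-1 than in A431 (0.48 ± 0.07, limma adjusted p = 1.93e-04). FBL had a difference of 0.05 ± 0.07, so its effects in the lines were not told apart. RIOK1, WDR12, DDX56, NOC2L and NOC4L fell in HSC-1 with no called difference, at -0.31 to -0.15.

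In DMSO alone, the factors were mostly higher in HSC-1 than in A431. Of the 39, 24 were higher, 6 lower and 9 did not pass, against 29.2% higher and 30.2% lower over all genes, with a median of 0.25 over the factors and 0.005 over all genes. DDX10, a helicase of small subunit assembly, read 7.37, 7.25 and 7.20 in HSC-1, against 6.07, 5.96 and 5.80 in A431 (2.52-fold, limma adjusted p = 1.6e-09). LYAR was 2.48-fold higher (1.31 ± 0.09), MYBBP1A, a nucleolar MYB-binding protein with a part in rRNA processing, 2.27-fold (1.18 ± 0.09), DDX21 2.17-fold (1.12 ± 0.04) and NOP14 2.06-fold (1.05 ± 0.07). The cultures were grown with either of a pair of serum levels, which the labels do not tie to a line, and the part of serum in the differences between the lines, or between their drug effects, was not tested. NOP53 was the lowest relative to A431, with a difference of -0.90 ± 0.05 (limma adjusted p = 1.03e-11). It read 7.69, 7.71 and 7.70 in HSC-1, against 8.62, 8.60 and 8.59 in A431. The others lower in HSC-1 were RRP1 (-0.55), DDX52 (-0.42), BYSL (-0.31), NOC3L (-0.23) and NAT10 (-0.21), so that the lower ones were 3 of 13 small subunit and 3 of 15 large subunit factors. The higher ones were RRN3, 2 of 6 snoRNP proteins (NOP58 and FBL), 8 of 13 small subunit factors, 10 of 15 large subunit factors and 3 of 4 proteins with several roles.

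Baseline level and drug response can be set side by side for single genes. NOP53 reached 8.65 to 8.84 in HSC-1 with everolimus, just above the 8.59 to 8.62 of A431 with DMSO. LYAR with everolimus in HSC-1 (6.10 to 6.46) stayed above A431 with DMSO (5.55 to 5.74). DDX10 and MYBBP1A, among the highest relative to A431 at baseline, did not pass in either everolimus comparison. Of the 22 factors that fell in HSC-1, 14 were higher in HSC-1 than in A431 in DMSO, 3 were lower and 5 did not pass. Among all 39 factors, 24 were higher (61.5%) and 6 lower (15.4%), against 29.2% and 30.2% of all genes. A link between baseline level and drug response was not tested. Both comparisons use the HSC-1 DMSO arrays.

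**Figure D4:**
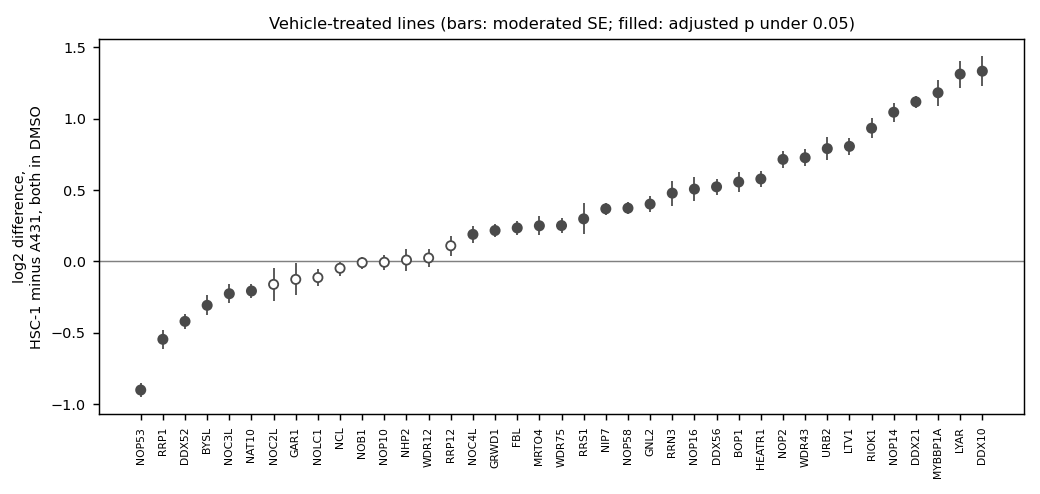
Log2 difference between HSC-1 and A431, both in DMSO (y axis), for the 39 factors in order of size, with bars for the moderated standard error and filled points for an adjusted p under 0.05. The values run from -0.90 for NOP53 to 1.33 for DDX10, with 24 filled points above 0 and 6 below.

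A separate list of 129 other ribosome biogenesis genes gave 93 that were tested. In HSC-1, 33 of them fell and 2 rose, against 11.3% and 7.34% of all genes, with a median of -0.16. In A431, 1 fell and 1 rose, against 4.33% and 2.39% of all genes, with a median of 0.02. NOL6, a protein of the small subunit precursor, had the smallest adjusted p of the 3 largest falls in HSC-1 (-0.49 ± 0.06, SE, limma adjusted p = 2.52e-05), beside PWP2 (-0.50 ± 0.12), also of that precursor, and PAK1IP1 (-0.43 ± 0.06), a large subunit factor. The 2 that rose in HSC-1 were RIOK3 (0.33 ± 0.05), a kinase found on late small subunit precursors, and the exosome subunit EXOSC5 (0.19 ± 0.05). The EXOSC5 call was lost without HSC-1 DMSO replicate 1 or everolimus replicate 1 (adjusted p up to 0.0731). In A431, SBDS, which acts in releasing a late large subunit factor, fell by 0.30 ± 0.06, and the ATPase AFG2A rose by 0.32 ± 0.08. Leaving out A431 DMSO replicate 3 or everolimus replicate 2 ended the AFG2A call (adjusted p up to 0.0612). Between the lines' effects, 23 of the 93 had a negative called difference and 1 a positive one, against 5.69% and 4.84% of all genes. In DMSO, 45 were higher in HSC-1 (48.4%) and 26 lower (28%), against 29.2% and 30.2% of all genes.

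Cytosolic ribosomal protein transcripts, the parts that the factors assemble, behaved otherwise. Of 47 tested, 25 rose and 0 fell in HSC-1 (median 0.23, 32 with an unadjusted p under 0.05 in limma), and 22 rose and 0 fell in A431 (median 0.19, 31 with an unadjusted p under 0.05). Of all genes, 7.34% rose in HSC-1 and 2.39% in A431. An unadjusted p under 0.05 in limma was found for 3187 of all 10613 genes in HSC-1 and for 2030 in A431. The difference of effects passed for 3 of the 47 ribosomal proteins (6.38%), all positive, against 4.84% positive over all genes. The median difference in HSC-1 was thus -0.23 for the assembly factors and 0.23 for the ribosomal proteins.

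Cell cycle transcripts moved with the factors in HSC-1. Of 36 tested, 30 fell and 0 rose there (median -0.28, 32 with an unadjusted p under 0.05 in limma), while 4 rose and 0 fell in A431 (median 0.06, 12 with an unadjusted p under 0.05), and the difference of effects was negative and called for 30. Over all genes, 11.3% fell in HSC-1, 2.39% rose in A431 and 5.69% had a negative called difference. The unadjusted p in limma was under 0.05 for 3187 of the 10613 genes in HSC-1 and for 2030 in A431. The part of the cell cycle change in the fall of the nucleolar factors was not tested.

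**Figure D5:**
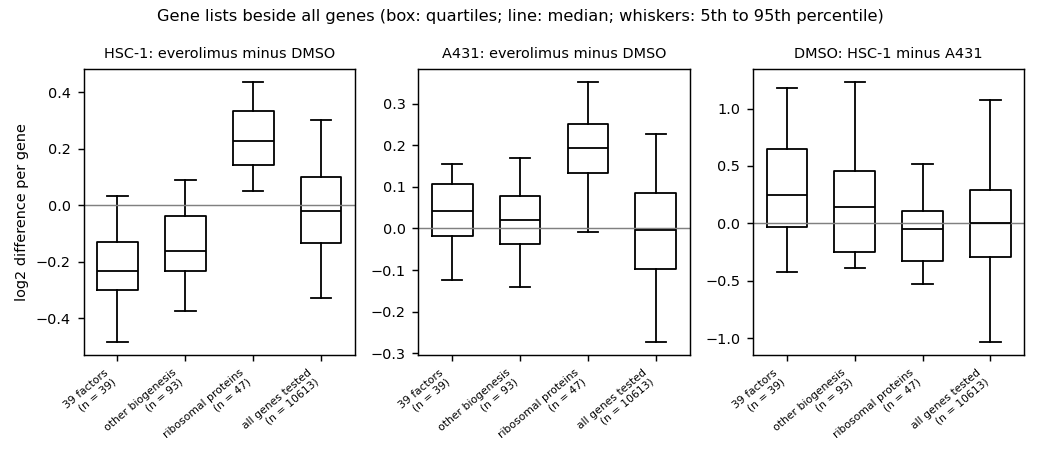
Log2 differences per gene (y axes, scaled per panel) for everolimus against DMSO in HSC-1 (left) and in A431 (middle), and for HSC-1 against A431 in DMSO (right). Boxes are quartiles with the median, and whiskers the 5th to 95th percentile: in HSC-1 the median is -0.23 for the 39 factors, -0.16 for the other biogenesis genes, 0.23 for ribosomal proteins and -0.02 for all genes.

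Another property of the factors was the hosting of small nucleolar RNA genes, which in humans mostly lie in introns. By position in the gene table, 4 of the 39 factors held such genes within their bounds (10.3%), against 281 of all 10613 tested genes (2.65%). The table gives no strand, so a gene on the other strand would be counted too. NOP58 held SNORD11, SNORD11B, SNORD70 and SNORD70B, NCL held SNORA75, SNORD20 and SNORD82, WDR43 held SNORD53, SNORD53B and SNORD92, and NOP53 held SNORD23. These hosts did not move together in HSC-1, where NOP58 and NCL fell, NOP53 rose and WDR43 did not pass (-0.09 ± 0.06).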

How the data were processed

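Transcript levels were measured on 12 arrays, 3 in each of 4 groups taken with their replicate numbers from the sample labels. Per the submitters' processing notes, the authors used RMA and Affymetrix Expression Console, and the deposited log2 values are 1 per probe set and array. The genome build is not given in the sources used here. The table held 53617 probe sets, of which 16098 carried 1 gene symbol in the platform annotation, matched by Entrez identifier to RefSeq gene symbols, and 37519 were unnamed here.

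Each of the 14884 genes named was represented by its probe set of highest mean level, and among the factors BOP1 alone had several. The 10613 genes above their array's median on at least 3 arrays were tested. Group means were fitted with limma 3.58.1 in R 4.3.3 (eBayes, trend on mean level, 8 degrees of freedom left for the spread), for everolimus against DMSO in each line, the difference of these effects, and HSC-1 against A431 in DMSO. P-values were adjusted by Benjamini-Hochberg over all 10613 genes, with a threshold of 0.05. Errors are moderated standard errors. No detection flags were given, and precision is limited by the number of arrays. The fit was tested on simulated data with 200 of 10613 genes changed. It recovered 35.7% of log2 changes of 0.3 in A431 and 29.5% in HSC-1. For log2 changes of 1 these shares were 95.7% and 100%. The changed genes were drawn at random from all genes tested, whose median standard error was 0.0937, against 0.0619 for the factors. In the real data more genes passed than were changed here, 714 in A431 and 1977 in HSC-1. These shares are therefore not those of the factors, but a factor that did not pass may still have changed by a small amount. The factors and the gene lists were chosen with earlier results of these data known, so no list was tested as a set. All listed factors with a named probe set are named. Of the other biogenesis genes, up to 3 rising and 3 falling genes per everolimus comparison are named, those of largest change past the threshold. E-boxes and pyrimidine runs were searched in the RefSeq promoter table of GRCh38.p14. Alternatives were other filters, scalings, probe set rules, variance models and thresholds, the 6 arrays of a comparison alone, a replicate block, and each array left out in turn.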

Additional observations from a re-analysis of the deposited data

Results flagged for a closer look

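The effect of everolimus differed between HSC-1 and A431 by the test of the difference itself (limma, adjusted p under 0.05 over all genes). This held for 19 of the nucleolar factors and for 4 of the named other biogenesis genes. Over all genes, 5.69% had a negative called difference and 4.84% a positive one. The named other biogenesis genes were picked for the largest called changes within a line on the same arrays, which favours such a call. The values are log2 differences of effects, HSC-1 minus A431.

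Large subunit factors with a more negative effect in HSC-1 than in A431 were NIP7 at -0.474, BOP1 at -0.43 and URB2 at -0.426. The same held for GRWD1 at -0.419, MRTO4 at -0.41, NOP2 at -0.401 and NOC3L at -0.324. Among small subunit factors, RRP12 had -0.409, LTV1 -0.381, BYSL -0.378, NAT10 -0.329 and HEATR1 -0.279. The snoRNP proteins NOLC1 and NOP58 had -0.349 and -0.337, and the polymerase I factor RRN3 had -0.414. LYAR had -0.672, DDX21 -0.41 and NCL -0.304. NOP53 had 0.479, with a rise in both lines that was larger in HSC-1.

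Of the other biogenesis genes, NOL6 had -0.43, PAK1IP1 -0.401 and AFG2A -0.386, and RIOK3 had 0.301. The AFG2A call was lost in 6 of 19 alternatives, without the intensity trend or without A431 DMSO replicate 3, A431 everolimus replicate 2, HSC-1 DMSO replicate 2, or HSC-1 everolimus replicate 2 or 3 (adjusted p up to 0.0654). The RIOK3 call was lost without the trend (adjusted p 0.0537).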

How the results depend on the processing

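Every factor called in a comparison kept its sign under every alternative tried. Of those not called, 14 of 36 changed sign in some alternative in A431, and 2 of 15 in HSC-1. All 20 alternatives kept 19 of 24 calls in HSC-1, 2 of 3 in A431 and 28 of 30 between the lines in DMSO. For the difference of effects, 19 alternatives kept 12 of 19 calls. The stricter threshold of 0.01 is not among these alternatives. The number falling in HSC-1 (22) was 17 to 22 with 1 array left out. At an adjusted p of 0.01, the falls of NCL, URB2, NAT10, NOC4L, NOC2L and RRN3 in HSC-1 no longer passed. In A431, the 1 factor falling became 0 without the intensity trend and 0 at an adjusted p of 0.01, and was 0 to 1 with 1 array left out, and the 2 rising became 4 after a further quantile normalization. The 18 negative calls of the difference became 9 at an adjusted p of 0.01. The median between the lines in DMSO was 0.251 and ran from 0.251 to 0.323 with 1 array left out, 0.323 being without A431 DMSO replicate 2.

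Calls of the difference lost in some alternatives were NOC3L in 12 of 19 (adjusted p up to 0.084), RRN3 in 11 and HEATR1 in 10 (each up to 0.116), URB2 in 3, BYSL in 2, BOP1 with the mean of its probe sets (0.0832) and NOLC1 without the trend (0.071). Between the lines, RRS1 was lost in 3 (up to 0.148) and NOC4L without A431 DMSO replicate 1 (0.0672). NOP16 was gained in HSC-1 in 6.

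Over all genes, the 714 calls in A431 became 438 without the trend, 458 without A431 DMSO replicate 1 and 456 without replicate 2. With a replicate block the factors gave 21 falling and 2 rising in HSC-1, 1 and 2 in A431, 15 negative and 1 positive differences, and 6 lower and 24 higher between the lines. Same-numbered arrays correlated at -0.155 to 0.0181 in their deviations from the group means, so the numbers were not taken to pair arrays.

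Signal over background cannot be judged, because no detection flags are in the table. The 17 factors without a named probe set, proteins, rRNA and other doses or times were not analysed here.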
